A study of Mus musculus with 8 samples.

Results

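Cytosolic ribosomal protein genes, which encode the proteins of the large and small subunits of the ribosome, were compared between mouse embryonic fibroblasts (MEFs) given interferon-beta (IFN-beta) and untreated ones. A gene was taken as a member when its symbol began with Rpl or Rps and a digit, or was Rpsa, Rplp0, Rplp1 or Rplp2. This matched 103 rows of the count tables, from which 10 rows of S6 kinase genes and 6 rows named as pseudogenes were left out. The remaining 87 genes, of 24015 gene rows in all, held 51 genes of the large subunit and 34 of the small subunit, counting paralogues with the subunit of their parent gene. The other two, Rps19bp1 (a nucleolar protein that binds Rps19 and SIRT1) and Rpl7l1 (an Rpl7-like protein linked to ribosome assembly), carry a matching symbol but are not standard ribosome subunits. Genes such as Fau, which also encodes a ribosomal protein, have other symbols and are not members. In all, 84 members passed the filter on low counts and were tested, among 12128 tested genes.

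The cytosolic ribosome is assembled in the nucleolus from rRNA and about equal amounts of each ribosomal protein, and its protein genes are among the most highly expressed of a growing cell. Their mRNAs begin with a run of pyrimidines, the 5' terminal oligopyrimidine (TOP) motif, through which mTORC1 and LARP1 adjust their translation. Type I interferons slow protein synthesis in virus-infected cells mainly at the level of translation and RNA decay, through products such as PKR and the OAS and IFIT proteins, so an mRNA level is only a portion of what decides how much ribosomal protein is made.

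The treated group comprised 2 RNA-seq libraries of wild-type MEFs on a C57bl/6 background, which had received mouse IFN-beta at 100 units/mL, a recombinant protein, over 6 h. The untreated group comprised 2 RNA-seq libraries of wild-type MEFs of the same background. In both groups the cells came from E12.5 embryos and were at passages 15 to 18. The series also lists HA-tag chromatin samples of H3.3 and their inputs, which were not analysed here. Nothing in the labels states that replicates were grown as separate cultures, and p-values therefore reflect the spread of these 4 libraries alone, which could be technical. Because the samples are bulk RNA, fewer cells of a type and less RNA per cell cannot be told apart.

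The IFN-beta libraries held 18901845 and 20714161 counts on genes, and the untreated libraries 18528685 and 24817342. Members took between 1151876 and 1860410 counts of a library. Ifit1, an interferon-induced antiviral gene, had 1725 and 1978.5 CPM (read counts scaled to a common library size) in the IFN-beta libraries, against 1.25 and 1.14 CPM in the untreated libraries. This checked the treatment labels. All 6 interferon-response genes checked were higher after IFN-beta. Fibroblast markers summed to 8828 and 9025 CPM in the IFN-beta libraries and to 8662 and 8201 CPM in the untreated libraries, with 0 of 11 tested markers called. Markers of leukocytes summed to between 16.6 and 23.6 CPM in any library, and those of epithelium, endothelium, muscle and erythroid cells to at most 5.19 CPM each, with Cd3e, Tie1, Myod1, Myog, Myf5 and 5 of 6 erythroid genes at 0. The exception among these marker lists was Cdh5, an endothelial gene that was higher after IFN-beta at 1.35 and 0.957 CPM in the IFN-beta libraries, against 0.104 and 0.228 CPM in the untreated libraries (edgeR adjusted p = 0.014).

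Promoter sequences show what these genes share at their start sites. RefSeq windows of 300 bases (build GRCm38.p6, 250 bases before to 50 after a listed start) were found for 66 of the 87 members, with 78 start sites among them. The stretches below run from 40 bases before to 20 bases after the first listed start and are written 5' to 3' on the gene's strand, with runs of at least 7 C or T in capitals. They were chosen for members with some of the most negative (Rps21, Rps27l, Rps15a) and most positive (Rps16, Rpl28, Rplp2) fitted fold changes. Starts at both ends of the range can thus be read side by side. Rpl4 was added because its run also holds the letters of an interferon-type element.
Rps21, chr2:180257339-180257398, plus strand: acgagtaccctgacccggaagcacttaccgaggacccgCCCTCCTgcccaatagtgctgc
Rps27l, chr9:66946046-66946105, plus strand: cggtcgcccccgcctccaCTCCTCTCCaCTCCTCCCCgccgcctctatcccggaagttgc
Rps15a, chr7:118116128-118116187, minus strand: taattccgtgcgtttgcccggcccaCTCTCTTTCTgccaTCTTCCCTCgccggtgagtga
Rps16, chr7:28350649-28350708, plus strand: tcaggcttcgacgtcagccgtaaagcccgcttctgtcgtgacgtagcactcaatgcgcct
Rpl28, chr7:4792925-4792984, plus strand: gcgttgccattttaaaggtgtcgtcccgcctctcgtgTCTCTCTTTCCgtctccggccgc
Rplp2, chr7:141447611-141447670, plus strand: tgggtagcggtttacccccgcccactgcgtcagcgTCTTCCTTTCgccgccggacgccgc
Rpl4, chr9:64173347-64173406, plus strand: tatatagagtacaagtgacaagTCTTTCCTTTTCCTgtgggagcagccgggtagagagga

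Pyrimidine runs appear at both ends of the range, in Rps21, Rps27l and Rps15a as well as in Rpl28 and Rplp2, while the Rps16 stretch has none. Over all 78 member starts, 40 (51.3%) had a run of at least 7 C or T within 20 bases of the start on the gene's strand, against 24.3% of all 32851 promoters in the RefSeq table. The letters CTTTCC, a common core of such runs, lay in the same interval in 15.4% of member starts and 1.9% of all starts. CCGGAAG, the core of ETS-type sites such as those of GABP, was found on either strand in 34.6% of member windows and 8.9% of all windows. GAAA followed after any 2 bases by another GAAA, the core of the element bound by IRF-family and ISGF3 factors, lay on either strand in 7 member windows (9.0%), against 3.4% of all windows. Those 7 members were Rpl5, Rps19, Rpl27a, Rpl4, Rpl38, Rps7 and Rps23. In Rpl4 the match lies on the opposite strand with its leftmost base 16 bases before the start, inside the capitals printed above, so this match and the pyrimidine run share letters. The Rpl27a match, on the opposite strand with its leftmost base 5 bases after the start, also lies inside a pyrimidine run. The part of such runs in the 9.0% was not tested. TATAAA lay 40 to 11 bases before the start in 1.3% of member starts and 2.1% of all. The median log2 fold change was -0.27 for the 38 tested members with a run and -0.23 for the 25 without, and -0.31 for the 7 with the interferon-type letters and -0.23 for the 56 without. A match is a description of letters and not a site of binding.

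No cytosolic ribosomal protein gene was called changed after 6 h of IFN-beta. Of the 84 tested members, 0 were higher and 0 were lower at a Benjamini-Hochberg adjusted p below 0.05 in edgeR's quasi-likelihood test, where 4.73% of all tested genes were higher and 0.495% were lower. DESeq2 and limma-voom also called 0 members. At an unadjusted p under 0.05, edgeR had 9 members (10.7%), against 18.2% of all tested genes. DESeq2 had 12 members, against 1781 of all 12128 tested genes, and limma-voom had 11, against 2135. The smallest adjusted p of a member was 0.177, for Rps16.

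The fitted fold changes of the members were small and mostly below 0. Their median log2 fold change was -0.23, a fold of 0.852, and the median of all tested genes was -0.02. Of the members, 72 of 84 (85.7%) lay below 0, and 52.6% of all tested genes did. The fitted values ran from -0.62 for Rps4l to 0.37 for Rps16, with quartiles of -0.31 and -0.04. The standard deviation of the members' log2 fold changes was 0.17, and the median standard error of a single member was 0.15 (range 0.12 to 0.45). All members come from the same 4 libraries, so the spread among them does not measure that error. The 49 tested large-subunit genes had a median of -0.23 and 43 of them lay below 0. The 33 tested small-subunit genes had a median of -0.26 and 28 of them lay below 0. The 95% intervals left out a 2-fold fall for 83 of 84 members, Rps4l being the exception, and a 2-fold rise for 84. A fall of 1.5-fold was left out for 41 members and a rise of 1.5-fold for 83, so for most members a decrease of that smaller size remains inside the error.

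**Figure D1:**
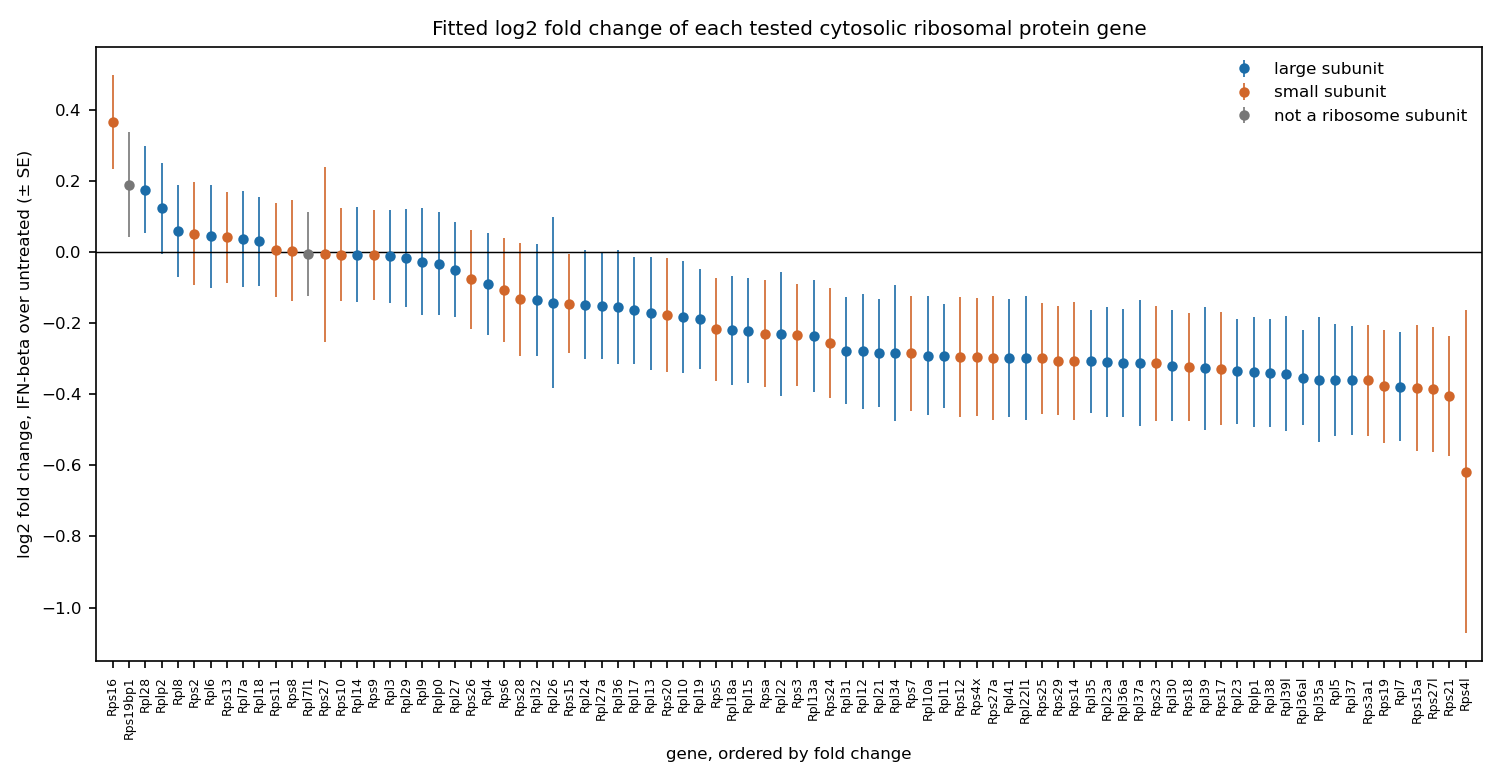
Fitted log2 fold change (IFN-beta over untreated, vertical axis) of each of the 84 tested members, ordered from highest to lowest along the horizontal axis, with bars of 1 standard error from edgeR. Points of the large subunit (blue) and the small subunit (orange) are mixed along the whole order, from Rps16 at 0.37 to Rps4l at -0.62.

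The members' levels differed between libraries of 1 group as well as between groups. Members took 6.09% and 6.84% of all gene counts in the IFN-beta libraries and 8.97% and 7.50% in the untreated libraries. The means were 6.47% ± 0.526 in IFN-beta libraries and 8.23% ± 1.04 in untreated libraries (SD, n = 2 each), a difference of -1.77 percentage points with an exact two-sided permutation p of 0.333, the smallest that 2 against 2 libraries allow. The groups did not overlap in this share, but untreated replicate 2 lay nearer to either IFN-beta library than to untreated replicate 1. In CPM the members summed to 64557 and 71363 in the IFN-beta libraries, against 86386 and 70544 in the untreated libraries. By that measure the groups overlapped. The members' median log2 CPM overlapped too, with an exact permutation p of 0.667. Large-subunit genes took 3.50% and 3.89% in the IFN-beta libraries, against 5.11% and 4.26% in the untreated libraries. Small-subunit genes took 2.57% and 2.93% in the IFN-beta libraries, against 3.84% and 3.21% in the untreated libraries. Both subunits had the same order of libraries.

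Another measure moved with this share. Rn45s (the 45S pre-rRNA row), Lars2 and Mir6236 together took 14.5% and 13.02% of gene counts in the IFN-beta libraries, against 5.94% and 7.52% in the untreated libraries, and all 3 rows were called higher. With these rows left out of the totals, members took 7.12% and 7.86% in the IFN-beta libraries, against 9.54% and 8.11% in the untreated libraries. The difference was then -1.33 percentage points. Records without a unique alignment, which enter no gene count, made up 34.9% and 37.2% of records in the IFN-beta libraries and 33.0% and 29.8% in the untreated libraries. In the edgeR fit without Rn45s, Lars2 and Mir6236 the members' median log2 fold change was -0.22, against -0.23 with them kept. It lay -0.21 from the median of all tested genes in both fits. The part of either measure in the members' values was not tested.

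On the TMM-scaled CPM, IFN-beta replicate 1 was the lowest of the 4 libraries for 54 of 84 members (64.3%), and for 30.0% of all tested genes. Untreated replicate 1 was the highest for 74 members (88.1%), and for 34.8% of all tested genes. Among the 1944 tested genes with an untreated mean of at least 100 CPM, it was the highest for 48.9%. With those libraries set aside, which favours a small gap, IFN-beta replicate 2 lay above untreated replicate 2 for 53 of 84 members. Their median log2 ratio was 0.03. IFN-beta replicate 1 lay above untreated replicate 2 for 28 members, with a median log2 ratio of -0.16. Against untreated replicate 1, IFN-beta replicate 2 was higher for 7 members and IFN-beta replicate 1 for 5. Shares of all tested genes in these pairs were not computed. The median log2 ratio of IFN-beta replicate 1 to IFN-beta replicate 2 was -0.15, and that of untreated replicate 1 to untreated replicate 2 was 0.28. For 58 of 84 members the gap between the untreated replicates was larger than the fitted difference between the groups. A gap between single libraries varies more than a difference between group means, and the share of all tested genes was not computed. That count therefore does not set the members apart from other genes. Both IFN-beta libraries lay below both untreated ones for 30 members (35.7%), where 26.8% of all tested genes did. Both lay above for 3 members (3.6%), Rps16, Rpl28 and Rps19bp1, where 23.9% of all tested genes did.

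**Figure D2:**
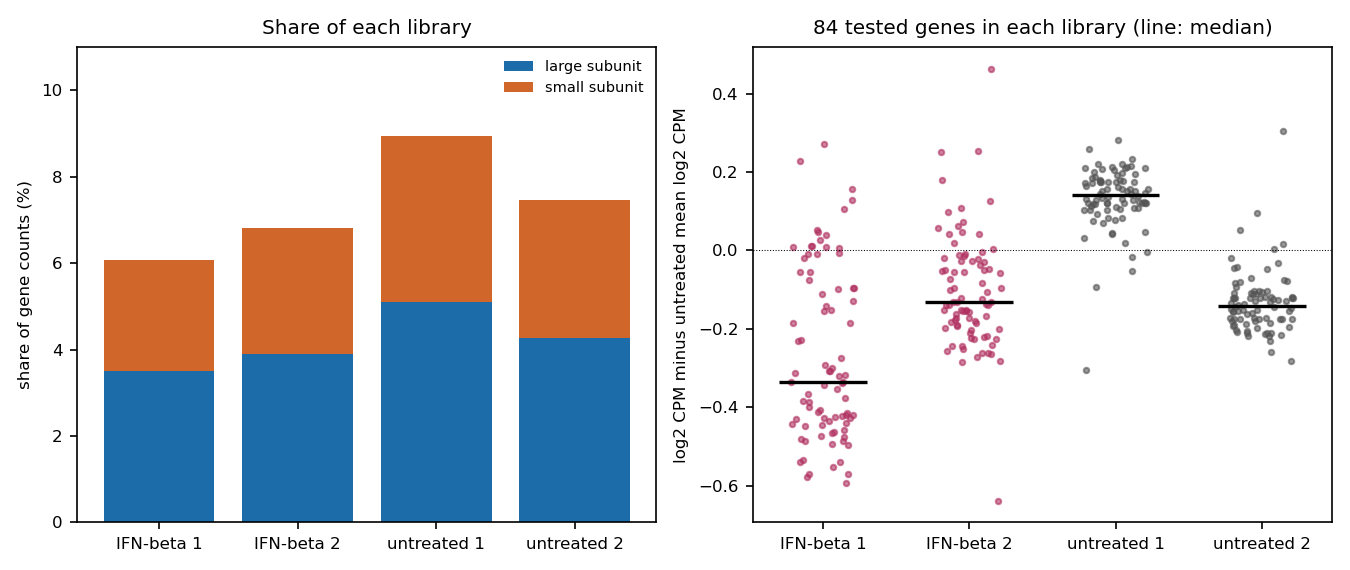
Left, the share of gene counts (%) taken by large-subunit and small-subunit genes in each of the 4 libraries. Right, log2 CPM of the 84 tested members in each library minus the member's mean over the untreated libraries, which places the untreated replicates symmetrically around 0, with a line at the median; by these medians IFN-beta replicate 1 lies lowest and untreated replicate 1 highest.

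Leaving out a library moved the calls. Without untreated replicate 2, edgeR called 51 of 84 members (60.7%) lower and 1, Rps16, higher, where 14.0% of all genes then tested were lower and 15.3% were higher, and the members' median was -0.36. Without untreated replicate 1 the median was -0.05, 48 of 84 members lay below 0 and 0 were called. Without IFN-beta replicate 1 it was -0.14 and without IFN-beta replicate 2 it was -0.34, with 0 members called in each. In these fits a group has 1 library, which is assumed to vary like the libraries of the other group. The chi-square per gene, a measure of the gap between replicates, was 12.1 for the IFN-beta pair and 34.2 for the untreated pair. The fit without untreated replicate 2 takes its spread from the closer pair, so its calls are not read as changes. The respiratory chain and ATP synthase list, described below, had a median of -0.39 in that fit. A fall of this size was therefore not particular to the members.

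**Figure D3:**
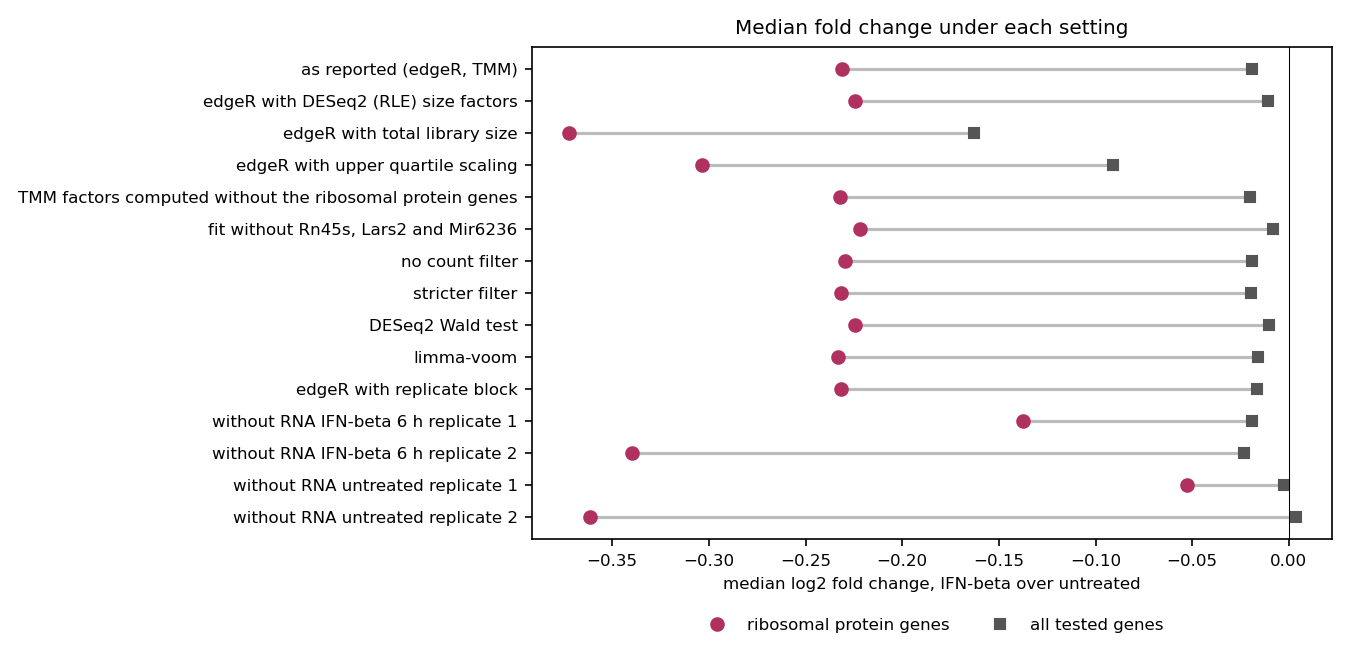
Median log2 fold change (IFN-beta over untreated, horizontal axis) of the tested ribosomal protein genes (circles) and of all tested genes (squares) under each setting. Scalings move both medians together, so the members stay about 0.21 below all genes, whereas leaving out untreated replicate 1 brings the members' median to -0.05.

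Among the members with the most negative fitted values, small-subunit genes filled 5 of the first 6 places. They made up 33 of the 84 tested members, and the first place was Rps4l, which had few counts. Places 8 to 12 all held large-subunit genes, so the cut at 6 does not set the small subunit apart. Within each group, values are given for replicate 1 and then replicate 2. Rps21, a small protein of the small subunit, had 372 and 454 CPM in the IFN-beta libraries, against 630 and 465 CPM in the untreated libraries (log2 fold change -0.40 ± 0.17 SE, edgeR adjusted p = 0.245). The groups did not overlap, but IFN-beta replicate 2 and untreated replicate 2 were nearly level. Rps15a, an rRNA-binding protein of the small subunit, had 600.2 and 765 CPM in the IFN-beta libraries, against 1022 and 758 CPM in the untreated libraries (-0.38 ± 0.18, edgeR adjusted p = 0.290). Here the groups overlapped. Rps19, needed for maturation of the small subunit and a common site of mutation in human Diamond-Blackfan anaemia, had 405 and 461 CPM in the IFN-beta libraries, against 642 and 482 CPM in the untreated libraries (-0.38 ± 0.16, edgeR adjusted p = 0.249). Its groups did not overlap, and untreated replicate 1 alone stood apart. Rps3a1, which lies near the mRNA exit of the small subunit, had 2091 and 2312 CPM in the IFN-beta libraries, against 3108 and 2545 CPM in the untreated libraries (-0.36 ± 0.16, edgeR adjusted p = 0.260). Its groups did not overlap either.

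Large-subunit members gave similar values. Rpl7, an rRNA-binding protein of the large subunit, had 1740.1 and 2048.5 CPM in the IFN-beta libraries, against 2639 and 2285.5 CPM in the untreated libraries (-0.38 ± 0.15, edgeR adjusted p = 0.231). Rpl5, which with Rpl11 and 5S rRNA forms the particle that also binds Mdm2, had 1846 and 2089.7 CPM in the IFN-beta libraries, against 2796 and 2255 CPM in the untreated libraries (-0.36 ± 0.16, edgeR adjusted p = 0.270). Rpl7 and Rpl5 did not overlap between groups, and in each IFN-beta replicate 1 was the lowest library and untreated replicate 1 the highest. Their intervals reached from -0.72 to -0.04 for Rpl7 and from -0.71 to -0.005 for Rpl5.

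Rps16 had the most positive fitted value. This small-subunit protein, whose tail reaches the decoding region, had 173 and 197.5 CPM in the IFN-beta libraries, against 134 and 153 CPM in the untreated libraries (log2 fold change 0.37 ± 0.13, 95% interval 0.07 to 0.66, edgeR adjusted p = 0.177). Both IFN-beta libraries lay above both untreated ones, and untreated replicate 1, the highest library for most members, was the lowest here. Rps19bp1 had 24.3 and 26.4 CPM in the IFN-beta libraries, against 22.1 and 22.3 CPM in the untreated libraries (0.19 ± 0.15, edgeR adjusted p = 0.537). Rpl28, a large-subunit protein found in vertebrates but not in budding yeast, had 159 and 148 CPM in the IFN-beta libraries, against 131 and 140.4 CPM in the untreated libraries (0.18 ± 0.12, edgeR adjusted p = 0.488). None of the 3 passed the test, and for Rpl28 and Rps19bp1 the interval included 0. Rpl8, a protein at the peptidyl transferase centre, had 1126 and 1204 CPM in the IFN-beta libraries, against 1132 and 1103 CPM in the untreated libraries (0.06 ± 0.13). Rps2, at the mRNA entry of the small subunit, had 2948.5 and 2984 CPM in the IFN-beta libraries, against 3026 and 2695.5 CPM in the untreated libraries (0.05 ± 0.14). For Rpl8 and Rps2 the groups overlapped, and their fitted values turned negative under total library size and upper quartile scaling.

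The stalk of the large subunit, where Rplp0 carries dimers of Rplp1 and Rplp2 that recruit the GTPase translation factors, gave values spread over the members' range. Rplp0 had 2202 and 2141 CPM in the IFN-beta libraries, against 2387 and 2054 CPM in the untreated libraries (-0.03 ± 0.14, edgeR adjusted p = 0.935). Rplp1 had 1013 and 1234 CPM in the IFN-beta libraries, against 1539.6 and 1299.5 CPM in the untreated libraries (-0.34 ± 0.15, edgeR adjusted p = 0.287). Rplp2 had 280.4 and 269 CPM in the IFN-beta libraries, against 270.4 and 234 CPM in the untreated libraries (0.12 ± 0.13, edgeR adjusted p = 0.654). For Rplp1 the groups did not overlap, and for Rplp0 and Rplp2 they did. The intervals of these stalk genes overlapped one another, and the difference between them was not tested.

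Other members that were to be named whatever their values, some with known roles outside the ribosome, were not called either. Rpl13a, which in human myeloid cells leaves the ribosome after interferon-gamma to block translation of selected mRNAs as part of the GAIT complex, had 975 and 1171 CPM in the IFN-beta libraries, against 1391 and 1136 CPM in the untreated libraries (-0.24 ± 0.16, interval -0.59 to 0.11, edgeR adjusted p = 0.467). Rpsa, a small-subunit protein also known as the laminin receptor precursor, had 2253 and 2496 CPM in the IFN-beta libraries, against 2989.9 and 2574.5 CPM in the untreated libraries (-0.23 ± 0.15, edgeR adjusted p = 0.462). The groups overlapped for Rpl13a and lay apart for Rpsa. Rps6, the substrate of the S6 kinases, had 1162 and 1162 CPM in the IFN-beta libraries, against 1384 and 1116 CPM in the untreated libraries (-0.11 ± 0.15, edgeR adjusted p = 0.756). Rpl3, which lines the peptidyl transferase centre, had 1120.3 and 1121 CPM in the IFN-beta libraries, against 1185 and 1075 CPM in the untreated libraries (-0.01 ± 0.13, edgeR adjusted p = 0.974). Rpl10, which joins the large subunit late in the cytoplasm, had 1315 and 1342 CPM in the IFN-beta libraries, against 1712 and 1304 CPM in the untreated libraries (-0.18 ± 0.16, edgeR adjusted p = 0.583). In Rps6, Rpl3 and Rpl10 both IFN-beta libraries lay between the untreated ones, and the fitted value of each turned positive without untreated replicate 1.

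Paralogue pairs are members of like sequence at separate loci. Rps27l, a paralogue of Rps27 that p53 induces, had 138 and 181 CPM in the IFN-beta libraries, against 239 and 178 CPM in the untreated libraries (-0.39 ± 0.18, edgeR adjusted p = 0.281). Rpl22 had 509 and 678 CPM in the IFN-beta libraries, against 781 and 611 CPM in the untreated libraries (-0.23 ± 0.17). Its paralogue Rpl22l1, whose mRNA Rpl22 protein can restrain, had 65.5 and 95.3 CPM in the IFN-beta libraries, against 104 and 93.8 CPM in the untreated libraries (-0.30 ± 0.18). In all 3 genes the groups overlapped, and Rpl22 and Rpl22l1 had the same order of libraries. Rpl36a had 529 and 652 CPM in the IFN-beta libraries, against 798.5 and 668 CPM in the untreated libraries (-0.31 ± 0.15). Rpl36al, its autosomal paralogue, had 193 and 211 CPM in the IFN-beta libraries, against 279.9 and 237 CPM in the untreated libraries (-0.35 ± 0.13, edgeR adjusted p = 0.198). Both lay apart between groups without passing the test. Rpl39 had 903 and 1142.5 CPM in the IFN-beta libraries, against 1454 and 1112 CPM in the untreated libraries (-0.33 ± 0.17). Rpl39l, its paralogue of male germ cells, had 84.7 and 114 CPM in the IFN-beta libraries, against 136 and 116 CPM in the untreated libraries (-0.34 ± 0.16). The groups overlapped for Rpl39 and lay apart for Rpl39l. Rpl7l1 had the fitted value nearest to 0 among the named members, with 225 and 220.4 CPM in the IFN-beta libraries, against 220.9 and 226 CPM in the untreated libraries (-0.005 ± 0.12). Rpl36, another large-subunit gene, had 302 and 342 CPM in the IFN-beta libraries, against 413 and 304 CPM in the untreated libraries (-0.15 ± 0.16).

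A few members gave low counts that are uncertain. Ribosomal protein genes have many near-identical processed pseudogenes, and reads that match several copies are left out of such counts, so a low CPM here need not mean a low level. Rps27 had 4.15 and 6.25 CPM in the IFN-beta libraries, against 5.41 and 5.08 CPM in the untreated libraries (-0.006 ± 0.25). Rpl26 had 7.34 and 12.3 CPM in the IFN-beta libraries, against 11.2 and 10.6 CPM in the untreated libraries (-0.14 ± 0.24). Rpl30 had 16.4 and 18.0 CPM in the IFN-beta libraries, against 22.2 and 20.8 CPM in the untreated libraries (-0.32 ± 0.16). Among these only Rpl30 had groups that did not overlap, and none passed the test. Rpl34 had 21.9 and 30.5 CPM in the IFN-beta libraries, against 35.6 and 28.4 CPM in the untreated libraries (-0.28 ± 0.19). Rps4l, a paralogue of Rps4x, had 9 and 9 counts in the IFN-beta libraries, against 11 and 23 counts in the untreated libraries (-0.62 ± 0.45, interval -1.63 to 0.40). The error of Rps4l was the widest of all tested members, so its rank at the negative end rests on few reads.

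The 3 members that failed the count filter are known from other tissues. Rpl3l, the form of Rpl3 of heart and skeletal muscle, had 1 and 0 counts in the IFN-beta libraries, against 2 and 0 counts in the untreated libraries. Rpl10l, the form of Rpl10 of male germ cells, and Rps27rt had 0 counts in all 4 libraries. Their parent genes Rpl3, Rpl10 and Rps27 were counted in every library.

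Other genes of translation and ribosome production were read from the same fit. Fau, which encodes Rps30, had 294 and 310.2 CPM in the IFN-beta libraries, against 330.1 and 284 CPM in the untreated libraries (-0.02 ± 0.13). Elongation factors (8 tested genes, median 0.03), initiation factors (37, 0.05) and ribosome biogenesis factors (48, 0.15) held 0 genes called by edgeR in either direction. RNA polymerase I machinery (14, -0.04) and mTORC1 and TOP control (16, 0.07) also held 0. So did the GAIT list (5, -0.0008), which counts Rpl13a itself (-0.24). The list of the p53 and 5S particle response (12, -0.08) likewise had 0 called. It counts the members Rpl5 (-0.36) and Rpl11 (-0.29) and shares Rrs1 and Rpf2 with the biogenesis list. Medians of these lists without members were not computed. Called genes appeared in a pair of lists. Of 19 RNA polymerase III genes, 1 was lower, Polr3g, a subunit form enriched in stem cells, with 24.5 and 23.4 CPM in the IFN-beta libraries, against 42.0 and 49.5 CPM in the untreated libraries (-0.94 ± 0.15, edgeR adjusted p = 0.00352). Of 12 genes of ribosome quality control and recycling, 1 was higher, Ascc3, a helicase that splits collided ribosomes, with 557 and 538 CPM in the IFN-beta libraries, against 197.5 and 182 CPM in the untreated libraries (1.53 ± 0.12, edgeR adjusted p = 2.41e-05). The other 18 and 11 genes of these lists were not called.

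Other lists also had medians below 0 that moved with the untreated libraries. Nuclear genes for subunits of the respiratory chain and ATP synthase had a median of -0.23 with 62 of 72 tested genes below 0 and 0 called. Without untreated replicate 1 their median was -0.03, and without untreated replicate 2 it was -0.39. Mitochondrial ribosomal proteins had a median of -0.09 with 53 of 77 below 0 and 0 called. This median moved to 0.02 without untreated replicate 1 and to -0.18 without untreated replicate 2. Their median was -0.04 without IFN-beta replicate 1 and -0.17 without IFN-beta replicate 2. The 9 host transcripts of small nucleolar RNAs, which like ribosomal protein mRNAs tend to begin with pyrimidines, had a median of -0.31 and 0 called. The median of these host transcripts was -0.12 without IFN-beta replicate 1 and -0.51 without IFN-beta replicate 2. It was -0.14 without untreated replicate 1 and -0.40 once untreated replicate 2 was left out. The ribosomal protein genes' median of -0.23 was level with that of the respiratory chain list and further below 0 than that of the mitochondrial ribosomal proteins. The difference between lists was not tested. Of the rows left out by name, 5 of 6 pseudogene rows were tested with a median of -0.13, and 9 of 10 S6 kinase rows with a median of 0.04, and 0 were called in each.

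**Figure D4:**
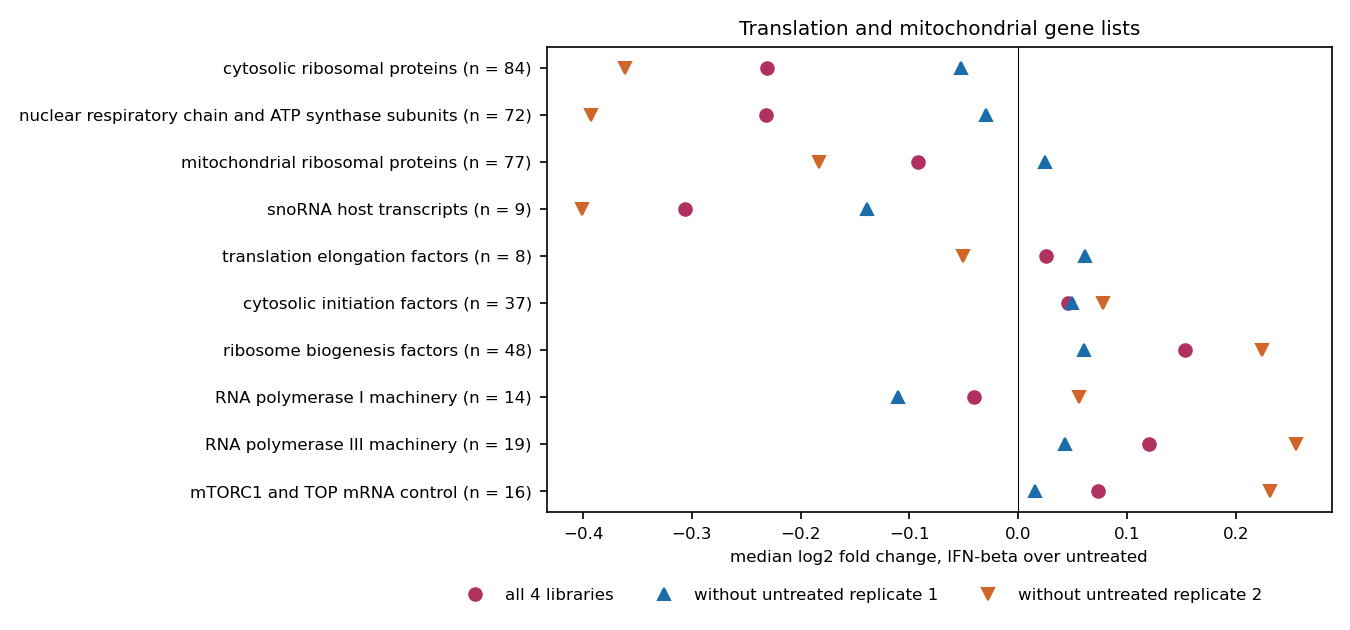
Median log2 fold change (IFN-beta over untreated, horizontal axis) of each gene list with all 4 libraries (circles), without untreated replicate 1 (upward triangles) and without untreated replicate 2 (downward triangles); n is the number of tested genes. Cytosolic ribosomal proteins and respiratory chain subunits both have a median of -0.23, which moves to -0.05 and -0.03 without untreated replicate 1.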

How the data were processed

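Raw read counts per gene were deposited by the authors, with 1 table for each library and no normalization or pooling. Per the submitters' processing notes, TopHat2 2.0.13, HTSeq 0.7.2 and the mm9 mouse build were used. Which annotation and strand setting went with them is not given in the sources used here, so a gene and its antisense partner may share reads. The 5 summary lines of each table were left out of library sizes. Of all records, 42.7% and 38.7% were assigned to genes in the IFN-beta libraries and 39.3% and 41.4% in the untreated libraries, and those outside any gene made up 21.9%, 23.7%, 27.2% and 28.3% of the same 4 libraries.

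All genes were fitted with edgeR 4.0.16 (R 4.3.3) by quasi-likelihood F tests with TMM scaling and no covariate beside group, after the default filter on low counts (at least 10 in a library, 15 in total). Calls were made below 0.05 after Benjamini-Hochberg adjustment over all tested genes. The standard error was taken as the size of the log2 fold change divided by the square root of F, and the 95% intervals follow from it. CPM used TMM-adjusted library sizes and is not per length, so a rank of genes by CPM serves only to choose names and is not a comparison of their levels. The procedure was checked on simulated counts with 2-fold changes and the same spread for all genes. That check does not cover changes as small as those of the members.

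Members and lists were chosen with earlier results of these data known. The text names the 6 members with the most positive and the 6 with the most negative fold changes, the 6 with the highest and the 6 with the lowest mean CPM, untested members, 10 fixed members and paralogues with their parents, and called list genes. Fau, Cdh5, Ifit1, Rn45s, Lars2, Mir6236 and Rpl4 with the other holders of the interferon-type letters were named after their values were seen. Alternatives were DESeq2 size factors, total library size, upper quartile scaling, TMM without the members, a fit without Rn45s, Lars2 and Mir6236, other count filters, DESeq2 1.42.0, limma-voom (limma 3.58.1), a replicate block and each library left out. Promoters came from RefSeq (GRCm38.p6), matched by symbol, and no coordinates of the count tables were used.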

Additional observations from a re-analysis of the deposited data

Results flagged for a closer look

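Records without a unique alignment, which enter no gene count, made up 36.03% ± 1.59 of records in the IFN-beta libraries and 31.4% ± 2.24 in the untreated libraries (SD, n = 2 each), with both IFN-beta libraries above both untreated ones. They stand outside the gene counts and were above the untreated level. With 2 libraries a group, the exact permutation p was 0.333, the smallest possible.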

How the results depend on the processing

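Each count and median was recomputed under the alternatives. With all 4 libraries, members at an unadjusted p under 0.05 ranged from 1 of 84 with the replicate block to 45 of 84 with total library size. Of all 12128 tested genes, 2048 and 3196 lay under it in those fits. Ribosomal protein genes called lower stayed at 0 and called higher at 0 under each scaling, filter and tool. With a library left out they ranged from 0 to 51 lower and from 0 to 1 higher, the upper ends coming from the fit without untreated replicate 2. The members' median log2 fold change kept its sign throughout, from -0.37 with total library size to -0.05 without untreated replicate 1. Total library size moved the median of all genes to -0.16 and upper quartile scaling to -0.09, and the members stayed -0.21 from it under both. Members' share of gene counts differed by -1.77 points, and by -2.50 to -1.03 with a library left out.

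Among all genes, 60 were lower, and 350 with total library size, 128 with upper quartile scaling, 381 without a count filter, 103 with DESeq2, and 24 to 1728 with a library left out. In all, 574 were higher, and 863 without a count filter and 470 to 1885 with a library left out. With a replicate block, 155 genes were lower and 692 higher, 0 members were called, and the members' median stayed at -0.23. Deviations of same-numbered libraries correlated at -0.088 over genes, so the numbers do not establish pairs.

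Of the alternative values of named members, 420 kept sign and side of the threshold, 19 passed it, all without untreated replicate 2, and 22 changed sign. By setting, Rps27 was 0.0023 and Rpl7l1 0.0034 with DESeq2 size factors, Rps27 0.005 and Rpl7l1 0.0057 without Rn45s, Lars2 and Mir6236, and Rpl7l1 0.0034 with DESeq2. With total library size Rps2 was -0.0903, Rpl8 -0.0826 and Rplp2 -0.019, and with upper quartile scaling Rps2 was -0.0206 and Rpl8 -0.0117. Over the fits with a library left out, Rps27 ranged from -0.33 to 0.26, Rpl26 from -0.57 to 0.18, Rpl7l1 from -0.018 to 0.013, Rplp0 from -0.14 to 0.10, Rps6 from -0.25 to 0.0818, Rpl3 from -0.0796 to 0.084, Rpl10 from -0.37 to 0.0504, Rpl36 from -0.36 to 0.11 and Rps2 from -0.0284 to 0.16. The causes of these changes were not tested. Among the comparison lists, counts of calls moved most without untreated replicate 2. Lists with 0 calls had at most 5 under any setting that kept all 4 libraries.

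With 2 libraries a group, the median standard error of a member was 0.15 on the log2 scale, which limits the size of change that could be called.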
